A study of Mus musculus with 6 samples.

Results

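The striated muscle myosins and actins described here are 10 genes of the contractile apparatus and its scaffold: the myosin light chain genes Myl1, Myl4 and Mylpf, the myosin heavy chain genes Myh3, Myh8 and Myh1, the actin genes Acta1 and Actc1, and Ttn and Des. They were chosen by gene symbol, as every probe set that the array's annotation assigns to a single one of these symbols. That gave 13 probe sets for 9 of the 10 genes, out of 12422 probe sets and 8251 named genes on the array. Ttn, which encodes the giant spring protein titin, had no such probe set and is not analysed here. The values are linear signals from 6 oligonucleotide arrays, 1 for each treatment and time, of C2AS12 cells, which descend from the mouse myoblast line C2.

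All cells carried a recombinant adenovirus that expresses p300, a coactivator of transcription that acetylates histones. The 3 treatments were Adp300wt with doxycycline, Adp300mut, and Adp300wt alone, called the doxycycline, mutant and wild-type arrays below. Each was measured after 24 h in low-serum differentiation medium and at 0 h, before that medium was added. The submitters give apoptotic death as the outcome with doxycycline and with mutant p300, and survival with wild-type p300. The mutation and the action of doxycycline are not stated in the labels, uninfected cells were not analysed here, and the design text counts the 6 arrays as biological replicates without naming cultures.

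In a myoblast that leaves the cell cycle and differentiates, genes of the sarcomere are switched on in order under the myogenic factors of the MyoD family and their MEF2 partners. Myosin forms the thick filament from heavy chains, which hold the motor, and light chains, which stiffen or regulate its lever arm. Alpha-actin forms the thin filament. Skeletal muscle cells first make embryonic or cardiac-type members of these families and later exchange them for adult fast or slow ones, and desmin, an intermediate filament protein, is already made in proliferating myoblasts.

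The median signal of the 6 arrays lay between 68.7 and 78.05. Markers of the labelled cell type were present. Myod1 read 419.1 to 813.0 and Itga7 290.4 to 518.0 on the 6 arrays. Myog, a factor of the MyoD family, read 175.7 to 296.4 at 24 h against 37.6 to 63.5 at 0 h. The muscle creatine kinase gene Ckm, too dim to be tested, went the other way, with 35.9, 11.4 and 41.2 with doxycycline, mutant and wild-type p300 at 24 h, against 48.4, 41.6 and 52.5 at 0 h, and no overlap. Of 7 tested skeletal muscle markers 4 rose, where 7.24% of the 6212 probe sets tested rose. Myog, among these 4, was too dim at 0 h and entered the test through its 24 h arrays. Its place in this count is thus no support for it. The summed signal of all 8 markers was 3055.4 to 3902.0 at 24 h, against 2127.4 to 2364.1 at 0 h. Of the 9 measured markers of cardiac muscle, Myh6, Myl7, Myl2 and Ryr2 lay under a signal of 16.4, the floor used throughout, on all arrays, while Nppa read 100.7 to 162.4, Gata4 112.7 to 200.7 and Nppb 40.7 to 196.2. The summed signal of the cardiac markers was 395.1 to 489.4 at 24 h, against 368.3 to 482.8 at 0 h. Of 6 leukocyte markers 5 were under the floor on all arrays, with Cd68 at 103.9 to 134.4 at 24 h against 148.4 to 173.0 at 0 h. With 9 spike-in controls the mean log2 signal, relative to the 6 arrays, was 0.13, 0.23 and -0.18 in the doxycycline, mutant and wild-type arrays at 24 h and -0.13 to -0.02 at 0 h.

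The promoter windows of the 5 members whose signals rose over 24 h are shown because these genes moved together. The sequences are those of RefSeq on GRCm38.p6, from 250 bases before to 50 after the annotated start, and capitals mark matches to the E-box CANNTG, the MEF2 consensus, the CArG box and TATAAA on either strand.

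Acta1, chr8:123894726-123895025, minus strand: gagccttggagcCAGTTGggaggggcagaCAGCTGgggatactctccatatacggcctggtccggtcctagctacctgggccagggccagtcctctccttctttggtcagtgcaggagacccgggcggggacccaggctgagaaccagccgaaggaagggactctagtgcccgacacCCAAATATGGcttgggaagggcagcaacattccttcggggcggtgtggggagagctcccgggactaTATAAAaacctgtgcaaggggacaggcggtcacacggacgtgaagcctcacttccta

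Actc1, chr2:114052826-114053125, minus strand: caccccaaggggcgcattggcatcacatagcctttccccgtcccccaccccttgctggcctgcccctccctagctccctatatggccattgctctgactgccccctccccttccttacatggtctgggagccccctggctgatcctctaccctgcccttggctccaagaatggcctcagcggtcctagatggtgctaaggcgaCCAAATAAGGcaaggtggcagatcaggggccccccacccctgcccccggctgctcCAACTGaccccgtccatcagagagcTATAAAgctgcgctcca

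Myl1, chr1:66945007-66945306, minus strand: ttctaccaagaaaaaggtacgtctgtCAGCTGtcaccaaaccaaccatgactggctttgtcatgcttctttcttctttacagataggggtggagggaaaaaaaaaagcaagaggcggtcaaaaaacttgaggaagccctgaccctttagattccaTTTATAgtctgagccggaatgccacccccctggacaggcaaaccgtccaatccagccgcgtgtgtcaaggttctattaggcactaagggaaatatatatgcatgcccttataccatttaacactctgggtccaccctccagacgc

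Mylpf, chr7:127211358-127211657, plus strand: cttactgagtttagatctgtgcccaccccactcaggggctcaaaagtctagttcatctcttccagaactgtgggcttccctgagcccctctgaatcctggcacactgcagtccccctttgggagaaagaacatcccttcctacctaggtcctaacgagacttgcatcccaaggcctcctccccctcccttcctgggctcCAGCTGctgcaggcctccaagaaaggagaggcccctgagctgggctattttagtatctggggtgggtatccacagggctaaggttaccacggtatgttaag

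Des, chr1:75360042-75360341, plus strand: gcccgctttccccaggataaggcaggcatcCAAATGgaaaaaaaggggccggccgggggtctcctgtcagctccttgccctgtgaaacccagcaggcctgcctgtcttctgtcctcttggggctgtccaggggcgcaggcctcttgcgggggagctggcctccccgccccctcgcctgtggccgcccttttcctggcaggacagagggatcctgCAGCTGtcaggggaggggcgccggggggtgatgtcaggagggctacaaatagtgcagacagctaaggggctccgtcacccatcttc

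All 10 listed genes had such a window. The CArG box, the sequence known to bind serum response factor, was found in 2 of the 10, those of Acta1 and Actc1, against 1.63% of 32851 promoter windows of the same length. In Acta1 it lay at -73 to -64 and in Actc1 at -47 to -38 from the start. The E-box form CAGCTG was found in 4 of 10, those of Myl1, Mylpf, Acta1 and Des, against 16.3% of all windows, and any E-box in 8 of 10 against 72.3%. The MEF2 consensus was found in 3 of 10, those of Myh8, Myh1 and Ttn, against 3.19%, and TATAAA in 6 of 10 against 13.6%. In Myh8 and Myh1 a TATAAA match on the other strand lay inside the MEF2 match, and every CAGCTG is also an E-box. The windows of Myl1, Mylpf and Myl4 lie within the annotated gene, so other start sites of these genes are not covered. A match describes letters only, and binding was not measured.

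**Figure D1:**
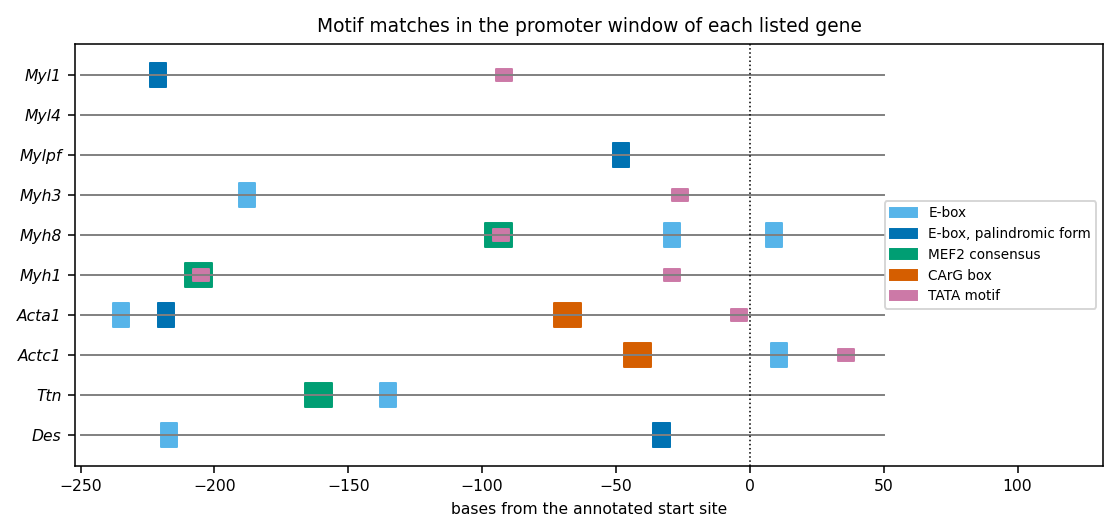
Each line is the promoter window of 1 listed gene, with the distance in bases from the annotated start site on the horizontal axis, and coloured blocks are motif matches. Orange CArG blocks appear only on the lines of Acta1 and Actc1, and Myl4 has no match to any of the 5 motifs searched.

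Setting 24 h against 0 h addresses which of these genes responded to differentiation medium whatever the treatment. Of the 13 probe sets, 6 had a mean signal of at least 75.2, the median over all probe sets, and were tested, 1 each for Myl1, Myl4, Mylpf, Acta1, Actc1 and Des. All 6 were above that level on every array at 0 h as well. Signals of 5 of the 6 rose by limma and 0 fell, where 7.24% of the 6212 probe sets tested rose and 9% fell. The median change of the 6 was 0.76 on the log2 scale, beside 0.0049 over all probe sets tested. Both the skeletal and the cardiac alpha-actin, the fast light chains and desmin were among those that rose. The effect of the medium cannot be told apart from that of 24 h of further culture, and in bulk RNA a larger share of differentiating cells and more RNA per cell cannot be told apart either.

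Myl1, which encodes the essential light chain of fast skeletal myosin, had the largest change of the 6 tested members. It read 2374.4 with doxycycline, 1697.8 with mutant p300 and 1093.5 with wild-type p300 at 24 h, against 445.5, 177.4 and 210.0 in the same order at 0 h. The lowest array at 24 h was thus above the highest at 0 h, and the doxycycline array was highest at both times. The change was 2.68 ± 0.50 (log2; mean and SD of the changes in the 3 treatments, n = 3; limma adjusted p = 3.61e-05), or 5.33-fold with doxycycline, 9.57-fold with mutant p300 and 5.21-fold with wild-type p300. By p it held rank 26 of the 6212 probe sets.

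Acta1, the alpha-actin of adult skeletal muscle, read 497.3, 246.0 and 200.9 with doxycycline, mutant and wild-type p300 at 24 h, against 168.1, 125.6 and 107.2 at 0 h. The times did not overlap, and the doxycycline array at 24 h stood well above the other arrays. Its signal rose by 1.15 ± 0.36 (SD, n = 3; limma adjusted p = 0.00221). Actc1, the alpha-actin of heart that developing skeletal muscle also makes, read 964.1, 682.3 and 656.3 at 24 h, against 441.2, 370.2 and 416.9 at 0 h, in the same order. Its times did not overlap either, and its signal rose by 0.89 ± 0.24 (SD, n = 3; limma adjusted p = 0.00135). That probe set has the suffix f, which marks probes shared within a gene family, so signal of other actins in it cannot be separated.

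A second probe set of Actc1, with the suffix i, was too dim on average to be tested. It read 125.4, 98.1 and 62.8 with doxycycline, mutant and wild-type p300 at 24 h, against 7.6, 8.1 and 11 at 0 h, where all 3 arrays lay under the floor of 16.4. Set against that floor, the signal was at least 7.65-fold higher with doxycycline, 5.98-fold with mutant p300 and 3.83-fold with wild-type p300. The same gene thus had a change of at least 2.48 on the log2 scale by one probe set and of 0.89 by the other, in the same direction.

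Des encodes desmin and was bright at both times. It read 496.3, 392.3 and 480.0 with doxycycline, mutant and wild-type p300 at 24 h, against 381.7, 264.6 and 357.6 at 0 h. The times did not overlap by a narrow margin, since the mutant array at 24 h was close to the doxycycline array at 0 h. The change of 0.46 ± 0.10 (SD, n = 3; limma adjusted p = 0.017) had the smallest SD over treatments of the 6 tested members. Mylpf, the regulatory light chain of fast myosin, read 167.0, 107.5 and 179.2 at 24 h, against 119.4, 81.0 and 88.6 at 0 h, in the same order. Its times overlapped, because the mutant array at 24 h lay under the doxycycline array at 0 h, and its change was 0.64 ± 0.33 (SD, n = 3; limma adjusted p = 0.0477). A second probe set of Mylpf with the suffix f read 0.6 to 18.8 on the 6 arrays, above the floor on the doxycycline array at 24 h alone.

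Myl4, the essential light chain of atrial and embryonic muscle, was the tested member that did not pass. It read 217.2, 122.3 and 161.8 with doxycycline, mutant and wild-type p300 at 24 h, against 114.0, 105.2 and 148.0 at 0 h, and the times overlapped. Its change was 0.93 with doxycycline, 0.22 with mutant p300 and 0.13 with wild-type p300, with a mean of 0.43 ± 0.44 (SD, n = 3; limma adjusted p = 0.164; 95% interval of the change -0.01 to 0.86). A second, dimmer probe set read 46.6, 29.2 and 36.2 at 24 h, against 25.1, 26.5 and 24.9 at 0 h, with a mean change of 0.52 ± 0.38 and no overlap. It was not tested.

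The 3 heavy chain genes were dim. Myh3, the embryonic heavy chain, read 58.7, 37.1 and 27.3 with doxycycline, mutant and wild-type p300 at 24 h, against 22.6, 7.1 and 16.6 at 0 h. All 3 arrays at 24 h were above all 3 at 0 h, and the ratio was 2.60-fold with doxycycline, at least 2.26-fold with mutant p300 and 1.64-fold with wild-type p300. In a fit of all 12422 probe sets, dim ones included, limma gave Myh3 an adjusted p = 0.161. Myh8, the perinatal heavy chain, read at most 10.8 on all 6 arrays by one probe set and at most 7.2 by the other, both with the suffix r. Myh1, an adult fast heavy chain, read 2.3 to 15.8 and was likewise under the floor on all arrays, so neither gene has a measured change. In the reference annotation Myh3, Myh2, Myh1, Myh4 and Myh8 follow each other on chromosome 11 with no other protein-coding gene between them, and Myh2 was also under the floor on all arrays.

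**Figure D2:**
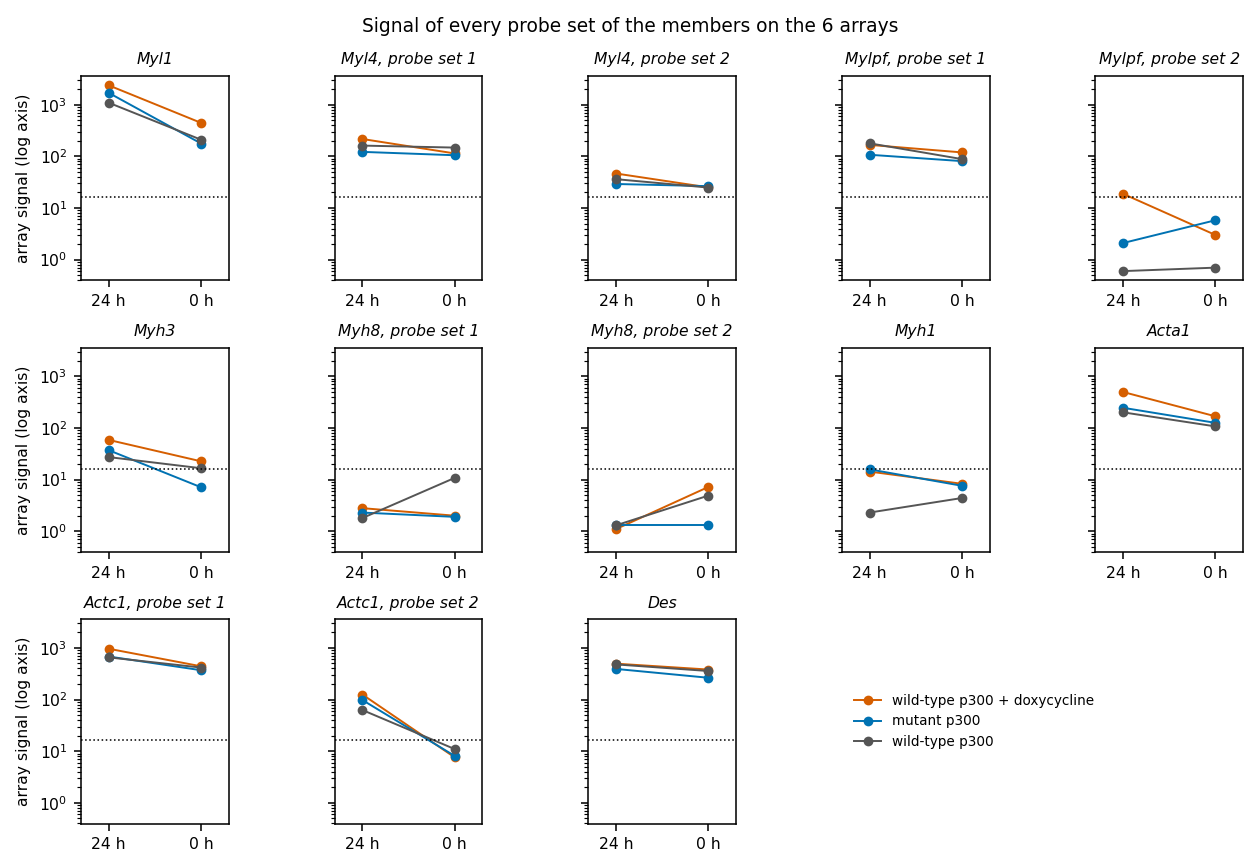
The array signal on a log axis is plotted for each of the 13 probe sets at 24 h and at 0 h. Each line joins the 2 arrays of 1 treatment, and the dotted line is the floor of 16.4. Myl1, Acta1, Des, Myh3, both Actc1 probe sets and the second Myl4 probe set have all 24 h points above all 0 h points, and the Myh8 and Myh1 points lie under the floor.

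Over all 13 probe sets, 7 had no overlap between the times with 24 h above, among them 4 of the 6 tested. No overlap with 24 h above was seen in 9.87% of all probe sets and 12.7% of those tested. Changes of at least 2-fold were seen in 3 of the 6 tested members with doxycycline, 1 with mutant p300 and 2 with wild-type p300, beside 1.61%, 1.61% and 1.71% of all tested probe sets. Myl1 passed that size in all 3 treatments, Acta1 and Actc1 with doxycycline, and Mylpf with wild-type p300 at 2.02-fold.

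The calls of the time effect depend on the filter. Without it limma called 0 of 12422 probe sets, of which 2030 had an unadjusted p under 0.05, and the adjusted p of the 6 members tested was 0.105 to 0.511. The filter does not enter their estimates, so the direction of the 6 could not change. Mylpf and Des lost their call without the doxycycline arrays (adjusted p = 0.117 and 0.0563) and without the mutant arrays (0.0852 and 0.141), and Mylpf also without the wild-type arrays (0.192).

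**Figure D3:**
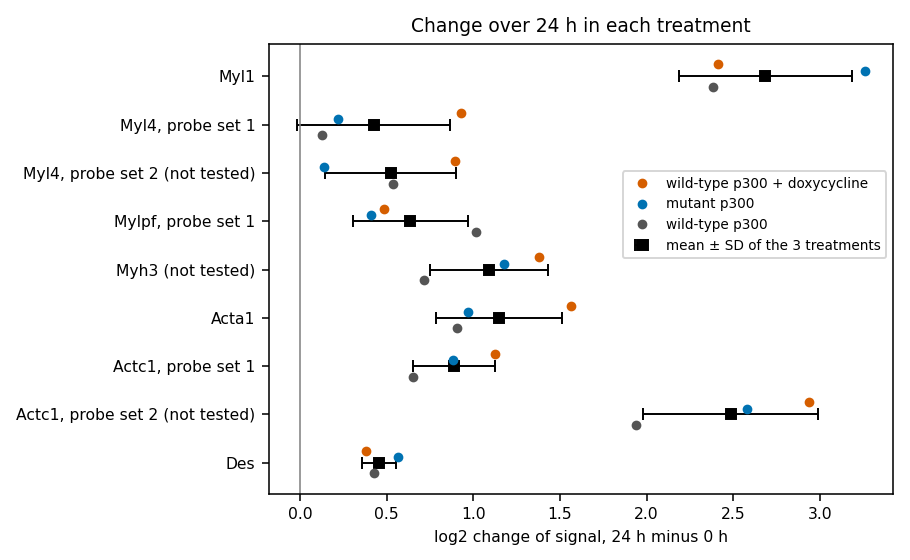
The horizontal axis is the log2 change of signal, 24 h minus 0 h, for the 9 probe sets that were tested or had all 24 h arrays above all 0 h arrays. Coloured points are the 3 treatments, and squares with bars are their mean and SD. All points lie right of 0, which the choice fixed in advance for the untested probe sets. Myl1 at 2.68 and the second Actc1 probe set at 2.48, a lower bound set by the floor at 0 h, lie far right of the rest.

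Other genes of the sarcomere and its regulators were counted in 6 lists. Of 6 tested genes of the thin filament, 4 rose, 0 fell and 2 did not pass, with a median of 0.63. Tnnt1, slow skeletal troponin T, changed by 2.70 ± 0.43 (SD, n = 3; limma adjusted p = 6.71e-05), close in size to Myl1, and Tpm2, beta-tropomyosin, by 0.78 ± 0.16 (adjusted p = 0.00119). Tnnc1, the slow and cardiac troponin C, by 1.12 ± 0.40 (adjusted p = 0.0169) and Tnni1, slow troponin I, by 0.48 ± 0.18 (adjusted p = 0.0391) were the other two that rose. The mean signals of Tnnt1 and Tnnc1 at 0 h were under 75.2, so both entered the test through their 24 h arrays and their place in this count is no support for it. Of 7 tested genes of the Z-disc and M-band, 1 rose, Actn3 at 1.07 ± 0.29 (adjusted p = 0.00117), and 6 did not pass, with a median of 0.26. Actn3 encodes the alpha-actinin of fast fibres. Of 9 other striated myosin chains and myosin-binding proteins on the array, 0 were bright enough to be tested, and Myh2, Myh6, Myl2, Myl3 and Myl7 lay under the floor on all arrays. Neither of the 2 tested intermediate filament genes, Nes at 0.16 ± 0.12 and Plec at 0.15 ± 0.27, passed.

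Among the non-muscle and smooth muscle relatives of these proteins, 1 of 12 tested genes rose, 0 fell and 11 did not pass, with a median of -0.02. Actg1, a cytoplasmic actin, changed by 0.00 ± 0.25 and Myh9, a non-muscle heavy chain, by -0.04 ± 0.21. Myl9, a regulatory light chain of smooth and non-muscle myosin, changed by 0.47 ± 0.29 without passing (adjusted p = 0.0587). The gene that rose was Acta2, the smooth muscle alpha-actin, at 0.68 ± 0.25 (SD, n = 3; limma adjusted p = 0.0055). It read 3575.7, 3753.2 and 2486.3 with doxycycline, mutant and wild-type p300 at 24 h, against 2416.5, 1918.0 and 1760.5 at 0 h, so the times did not overlap. Of the 6 measured smooth muscle markers, 1 of 4 tested rose, again Acta2, and their summed signal was 3138.5 to 4557.4 at 24 h, against 2478.6 to 3247.1 at 0 h. Most of that sum is Acta2. The other tested markers, Tagln, Actg2 and Smtn, changed by 0.03, -0.22 and -0.31 and did not pass. Myh11 and Cnn1 were under the floor on all arrays, while Tagln read 154.0 to 316.8, Smtn 57.8 to 238.9 and Actg2 237.8 to 464.6. The part of smooth muscle cells in the change of the actins was not tested. Of 5 tested myogenic factors, 3 rose and 0 fell: Myog by 2.2 ± 0.04 (adjusted p = 0.000119), Mef2d by 0.45 ± 0.06 (adjusted p = 0.00925) and Mef2a by 0.46 ± 0.16 (adjusted p = 0.0172). Myog likewise entered the test through its 24 h arrays, since it was under 75.2 on all arrays at 0 h.

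**Figure D4:**
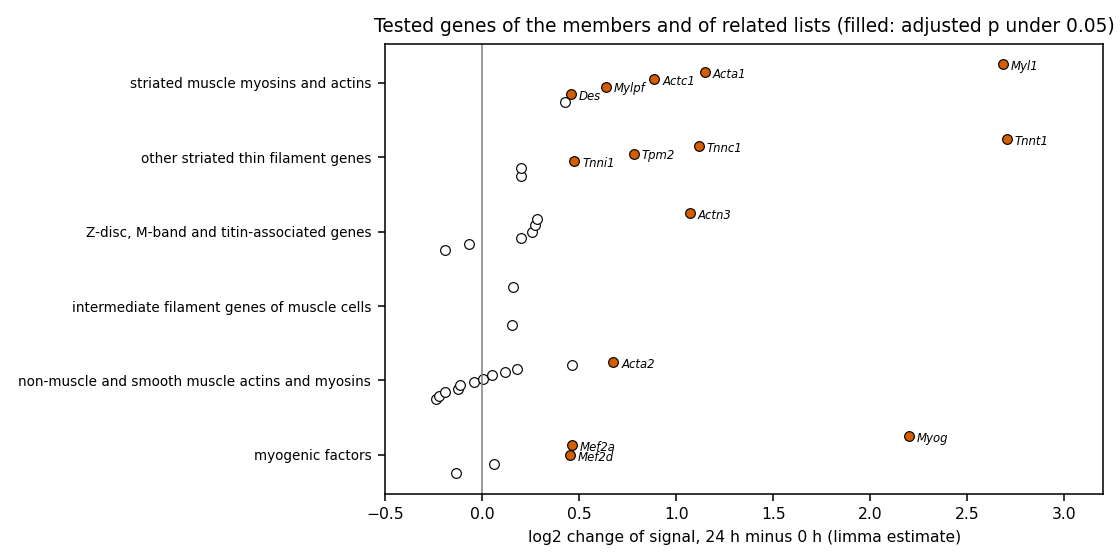
The horizontal axis is the limma estimate of the log2 change, 24 h minus 0 h, and each point is a tested gene of the members or of a related list. Filled points had an adjusted p under 0.05. Myl1, Tnnt1 and Myog lie beyond 2, and all but 1 of the non-muscle and smooth muscle actins and myosins are open points, with Myl9 the highest of these at 0.47.

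The comparison of the doxycycline and mutant arrays with the wild-type array asked whether these genes differ with the outcome. At 24 h, limma called 0 of the 6 tested members, 0 of them had an unadjusted p under 0.05, and 0.773% of all tested probe sets were called in either direction. Acta1 differed by 0.80 on the log2 scale (doxycycline and mutant p300 minus wild-type p300; SE 0.39; 95% interval -0.08 to 1.68; limma adjusted p = 0.493), and Myl1 by 0.88 (SE 0.45; 95% interval -0.14 to 1.90; adjusted p = 0.512). Mylpf was the member with the most negative difference, at -0.42 (95% interval -1.26 to 0.42; adjusted p = 0.744), and Actc1, Des and Myl4 lay at 0.31, -0.12 and 0.01 (adjusted p = 0.700, 0.910 and 0.997). The intervals are wide, so they do not show that the outcomes were alike. The wild-type group is a single array at each time and was assumed to vary like the others.

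Single arrays decided calls here. Without the mutant array at 24 h, Acta1 differed by 1.31 (adjusted p = 0.00729), and without the doxycycline array at 24 h by 0.29 (adjusted p = 0.688). Actc1 differed by 0.056 without that doxycycline array (adjusted p = 0.925). Leaving out the doxycycline or the mutant array at 0 h cannot change the 24 h difference of Myl1, which is 0.88. It alters only the error, so the call that Myl1 gained without either of these arrays is no support for a difference. The ratio of 3' to 5' signal of the beta-actin control, a sign of RNA quality, was 1.45 with doxycycline and 1.49 with mutant p300 against 1.33 with wild-type p300 at 24 h, and 1.303 and 1.335 against 1.325 at 0 h. For Gapdh it was 0.859 and 0.905 against 0.875 at 24 h, so the wild-type array lay between the others, and 0.855 and 0.856 against 0.867 at 0 h. The part of RNA quality in the differences with outcome or time was not tested. With scaling to the spike-in controls, which put the median difference of all probe sets at -0.32, the differences of Actc1 and Myl4 at 24 h turned to -0.060 and -0.35, and those of Acta1 and Myl1 were 0.43 and 0.51.

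The doxycycline and mutant arrays did not stand at the same level. At 24 h the doxycycline array was the highest of the 3 for 5 of the 6 tested members, as it was for 38.1% of all tested probe sets. Acta1 was 2.48-fold and Myl1 2.17-fold higher in it than in the wild-type array, and 1.27% of all tested probe sets were at least 2-fold higher. The untested Myh3 was 2.15-fold higher and the second Actc1 probe set 2.00-fold, just short of 2. With mutant p300, 0 of the 6 tested members were at least 2-fold above the wild-type array, beside 0.885% of all probe sets, and the ratios ran between 0.60-fold for Mylpf and 1.55-fold for Myl1. Doxycycline over mutant p300 was above 1 for all 6 tested members at 24 h, from 1.27-fold for Des to 2.02-fold for Acta1, where 51.7% of all tested probe sets were higher and 1.34% at least 2-fold higher. The doxycycline and mutant ratios share the wild-type array, and with 1 array a group these values have no test.

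The doxycycline array was also high before the medium change. At 0 h it was the highest of the 3 for 5 of the 6 tested members and for 33.3% of all tested probe sets. Myl1 was 2.12-fold above the wild-type array and 2.51-fold above the mutant array, where 0.483% and 0.531% of all tested probe sets were at least 2-fold higher. Acta1 was 1.57-fold above the wild-type array at 0 h. By limma 0 of the 6 members differed with the outcome at 0 h, and over all probe sets 0 were called and 262 had an unadjusted p under 0.05. Over both times together 0 of 6 were called, with Acta1 at 0.62 (95% interval 0.02 to 1.22, limma adjusted p = 0.346), against 0.531% of all probe sets. That fit takes the 0 h and 24 h arrays of a treatment as independent, so its intervals may be too narrow.

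**Figure D5:**
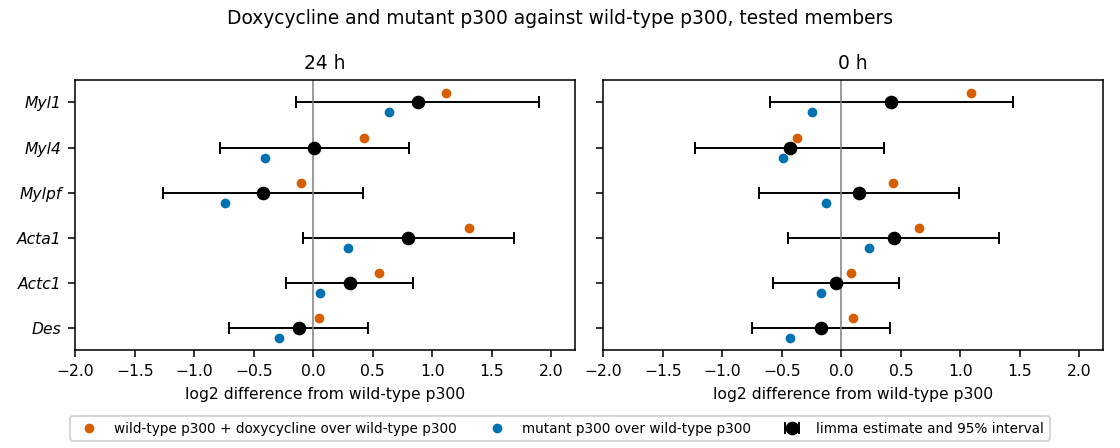
The horizontal axis is the log2 difference from the wild-type array for the 6 tested members at 24 h (left) and 0 h (right). Black points with bars are the limma estimate and its 95% interval, and coloured points are the doxycycline and mutant arrays. Every interval crosses 0, and for each member the doxycycline point lies right of the mutant point at both times.

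Whether the change over 24 h itself differed with the outcome was tested as an interaction. Limma called 0 of the 6 members and 0 of 6212 probe sets, of which 197 had an unadjusted p under 0.05. The difference in change (doxycycline and mutant p300 minus wild-type p300) was 0.46 for Myl1 (95% interval -0.98 to 1.90), 0.45 for Myl4 (-0.68 to 1.57), 0.36 for Acta1 (-0.89 to 1.61), 0.35 for Actc1 (-0.40 to 1.10), 0.05 for Des (-0.77 to 0.87) and -0.57 for Mylpf (-1.76 to 0.62), all with adjusted p = 0.999995. That fit had no block for treatment, so the gap between the doxycycline and mutant arrays went into its error. With treatment as a block, a fit added after seeing the data, limma called 53 probe sets and again 0 of the 6 members. The interval of Myl1 was then -0.05 to 0.97 (adjusted p = 0.668), that of Actc1 -0.08 to 0.78 (adjusted p = 0.731) and that of Mylpf -1.38 to 0.24 (adjusted p = 0.805). The change was smallest with wild-type p300 for 4 of the 6 tested members, where 38.3% of all tested probe sets had that order. Mylpf went the other way, with changes of 0.48 with doxycycline, 0.41 with mutant p300 and 1.02 with wild-type p300.

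The mean of the 6 tested members, each centred on its own mean over the arrays, was 0.92, 0.28 and 0.36 on the log2 scale with doxycycline, mutant and wild-type p300 at 24 h, and -0.23, -0.77 and -0.56 in the same order at 0 h. Actc1 was nearest to that profile (Pearson's r = 0.988 over 6 arrays) and Myl4 farthest (0.769). Of 832 other tested genes with at least a 2-fold range, those most like it were Dapk2 (r = 0.998), Chrng (0.996), Atp2a1 (0.996), Ryr1 (0.990), Tcf4 (0.990) and Wdr45 (0.986), a description over 6 arrays that share the step from 0 h to 24 h. Chrng encodes the embryonic subunit of the muscle acetylcholine receptor, Atp2a1 the calcium pump of fast muscle and Ryr1 the calcium release channel of skeletal muscle. Ryr1 was under 75.2 on all arrays at 0 h, so it became a candidate through its 24 h arrays. Chrng read 589.4, 348.6 and 356.1 with doxycycline, mutant and wild-type p300 at 24 h, against 249.1, 171.5 and 202.0 at 0 h. It was picked for its likeness to the members' mean, so the order of its arrays is no separate finding.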

How the data were processed

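The deposited values are linear intensity signals, 1 per probe set and array; the submitters' processing notes name MAS5, with no version, settings or detection calls stated. Of 12488 probe sets, 66 controls were dropped. The annotation gave 10833 of the other 12422 a single symbol, 396 several and 1193 none. Symbols were updated through RefSeq (GRCm38.p6), which also gave the promoter windows. Probe sets whose mean signal reached the median of 75.2 were tested. Signals under 16.4, the 25th percentile, were raised to that floor before log2. A gene with several probe sets was represented by its brightest.

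Tests used limma 3.58.1 (R 4.3.3; eBayes with a variance trend, 2-sided) with Benjamini-Hochberg adjustment over the 6212 probe sets tested, and a call needed an adjusted p under 0.05. Treatment was a block in the time fit, and in an added fit of the interaction. Outcome and interaction effects compared means per outcome and time, and the fit over both times had outcome and time as terms. No label names separate cultures, so the p-values reflect the spread among these arrays, which may be technical; their number limits the precision. Named genes were all members, up to 4 called genes of each related list and the 6 genes most like the members' mean profile. Other genes are named only for their values. The members and lists were chosen with earlier results of these data known. The fits were also run on simulated data with independent noise on each array. Those data had no gap between the doxycycline and mutant arrays shared by both times, so they do not vouch for the outcome and interaction p-values.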

Additional observations from a re-analysis of the deposited data

How the results depend on the processing

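The direction of the time effect stayed in all 11 alternatives for all 6 tested members. Of 66 such values, 48 kept their side of the threshold and 18 were no longer called. The 48 include every value of Myl4, which was not called in the main fit. The alternatives of filter, lower floor, variance trend and treatment block leave the estimates of these 6 members as they are. A direction could therefore change only in the other alternatives. The count of members called was 5, and it was 0 without the filter, 3 with spike-in scaling, 3 without the variance trend, 2 without the treatment block and 3 to 4 with 1 treatment left out. With the filter at the 25th percentile it was 5 of 9 member probe sets, with Actc1 counted by both its probe sets and Mylpf no longer called. The second Actc1 probe set entered that test through its 24 h arrays, so its call is no support. Over all probe sets, 1009 were called for time, 0 without the filter, 619 with spike-in scaling (141 higher, 478 lower), 514 without the block and 470 to 1275 with 1 treatment left out. The second probe set moved the mean change of Mylpf to 0.07 and that of Actc1 to 2.48. Both values depend on the floor. That of Mylpf lay under it on 5 of the 6 arrays, and that of Actc1 on all 3 arrays at 0 h, so 2.48 is a lower bound.

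For the outcome at 24 h, 48 probe sets were called, and 192 without the filter, 0 with the filter at the 25th percentile, 426 with spike-in scaling, 11 without the trend and 161 to 351 with 1 array left out; of the members, 0 to 1 were called with 1 array left out. At 0 h, 0 were called, and 126, 5 and 18 to 38 without the filter, with spike-in scaling and with 1 array left out, with 0 to 1 members. For the interaction, 0 were called, and 245, 1 and 6 to 43 in the same order, and 53 (16 higher, 37 lower) with treatment as a block, an alternative chosen after seeing the data. Over both times, 33 were called, and 10 without the filter, 237 with spike-in scaling, 1 without the trend and 0 to 50 with 1 array left out. Some uncalled differences changed sign. With spike-in scaling these were Myl4 (-0.35) and Actc1 (-0.060) at 24 h and Acta1 (-0.050), Actc1 (-0.061) and Des (-0.36) in the interaction. With 1 array left out, Myl4 ranged from -0.40 (without the doxycycline array at 24 h) to 0.42 and Des from -0.29 to 0.048 (without the mutant array at 24 h) in the 24 h comparison. In the interaction, Acta1 ranged from -0.15 to 0.87, Des from -0.22 to 0.31 and Myl1 from -0.21 to 1.12, the first lowest without the doxycycline array at 24 h and the other two without the mutant array at 0 h. The cause of these shifts was not tested. The labels give no replicate numbers, and the pairing used was that of the 24 h and 0 h arrays of a treatment. With 1 array left out, the lone array of a group is assumed to vary like the others. Signals near the floor, as for the heavy chains, limit what can be measured.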

Other observations

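Some dim genes of the heavy chain cluster and the Z-disc did not follow the members. Myh4, an adult fast heavy chain, read 59.1, 34.8 and 60.0 with doxycycline, mutant and wild-type p300 at 24 h, against 86.1, 31.0 and 114.3 at 0 h, by a probe set with the suffix r. Tcap, which caps titin at the Z-disc, read 14.5, 24.6 and 46.0 at 24 h, against 51.1, 53.1 and 51.3 at 0 h. Neither was bright enough to be tested. The chaperone gene Cryab, known to protect desmin filaments, differed with the outcome. It read 152.8 with doxycycline and 235.2 with mutant p300 against 773.7 with wild-type p300 at 24 h, and 158.3 and 206.1 against 474.9 at 0 h, and limma called it lower at 24 h, at -2.03 on the log2 scale (adjusted p = 0.0181). Its probe set has the suffix f, and with the filter on dim probe sets at the 25th percentile, where 0 probe sets were called, it was not called. All of these genes were singled out after their values were seen.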
